A study of Mus musculus with 20 samples.

Results

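Tumour endothelial cells from hosts labelled CD8KO were compared with those from wild type (WT) hosts by bulk RNA sequencing, over all expressed genes. The comparison uses 7 of the series' 20 libraries, chosen by their titles: 3 labelled CD8KO (CD8KO_9751, CD8KO_9752 and CD8KO_9753) and 4 labelled WT (WT_9748, WT_9749, WT_9771 and WT_9772). All hosts were C57BL/6J mice that had received cells of E0771, a mouse mammary carcinoma line, in the mammary fat pad, and tumours were taken at 500 mm3. Cells carrying CD31, a surface protein of endothelium encoded by Pecam1, were enriched on beads and then sorted. The labels class the CD8KO and WT hosts alike as competent for CD4 T cells. They do not give the CD8KO allele, the hosts' age or sex, or whether libraries came from separate animals, so the p-values below reflect variation among these samples alone, which may be technical. The other 13 libraries came from hosts labelled CD4KO (n = 3), TCRKO (n = 3), Tie2Cre;H2Ab fl/fl (n = 4) and Tie2Cre (n = 3), where Tie2Cre is a Cre recombinase driven by the Tie2 promoter, which is active in endothelial and blood cells. They entered the estimate of the spread and a second comparison that sets the libraries labelled CD8KO against the mean of these 4 backgrounds.

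CD8 is a surface receptor of cytotoxic T cells, built from an alpha chain (Cd8a) and a beta chain (Cd8b1), which binds class I molecules of the major histocompatibility complex (MHC) on the target cell. Endothelial cells meet T cells at the vessel wall. They present peptides on MHC molecules, carry adhesion proteins such as VCAM1 that hold leukocytes, and respond to interferon-gamma, a cytokine made mainly by T cells and natural killer cells, by way of transcription factors that include IRF1. Guanylate-binding proteins (Gbp genes) and MHC class II genes are well-known targets of interferon-gamma.

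The libraries differed in composition as well as depth. Total counts were 7797974, 6372883 and 10117155 in the 3 libraries labelled CD8KO, against 5866573, 8946687, 2014883 and 4685334 in the 4 labelled WT (WT_9748, WT_9749, WT_9771 and WT_9772). CD8KO_9752 stood apart with 17.2% of its counts in genes of ribosomal-RNA-like or otherwise abundant RNA and 5158770 counts in other protein-coding genes; these counts were 1656335 and 1935990 in the other libraries labelled CD8KO. WT_9771 stood apart with 47.1% of its counts in satellite-like genes, against at most 0.983% in any other of the 7 libraries, and with 203555 counts in other protein-coding genes, against 1142745 to 1533164 in the other libraries labelled WT. Spearman correlations between libraries labelled CD8KO were 0.856 to 0.891. Those between WT_9748, WT_9749 and WT_9772 were 0.699 to 0.771, and those of WT_9771 with the other libraries labelled WT were 0.359 to 0.384. Values below are CPM, that is counts scaled to one common library size, with TMM factors, which correct for such differences in composition. A floor of 3 counts corresponded to 0.128 to 0.432 CPM in libraries labelled CD8KO and to 0.497 to 2.46 CPM in those labelled WT, for counting error only. WT_9771 and CD8KO_9752 were also left out, alone and together, and for gene lists the range of the median over fits that leave out 1 of the 7 libraries is given where it is wide.

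The sort carried the genes of endothelium in both groups. The summed level of 7 endothelial markers (Pecam1, Cdh5, Kdr, Tek, Tie1, Emcn and Cldn5) was 3110 to 4018 CPM in libraries labelled CD8KO and 1492 to 3757 CPM in those labelled WT, where the lowest value was that of WT_9771. Pecam1 stood at 1268, 1060 and 1011 CPM in libraries labelled CD8KO, against 1151, 1078, 435 and 1207 CPM in those labelled WT. Epcam, a surface protein of the carcinoma's epithelial lineage, had no count in any of the 7 libraries, and the summed level of Epcam, Krt8 and Krt18 was at most 0.432 CPM in libraries labelled CD8KO and 0.568 CPM in those labelled WT. All 6 macrophage markers were detected in both groups, with sums of 145 to 199 CPM in libraries labelled CD8KO and 130 to 436 CPM in those labelled WT. In bulk RNA, fewer cells of a type and less RNA per cell cannot be told apart.

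Cd8a, the gene that the label names, was read first, and it ran against the label. It held 338, 914 and 601 counts in the 3 libraries labelled CD8KO, against 0, 0, 3 and 0 counts in those labelled WT, which is 48.7, 39.0 and 69.8 CPM against at most 2.46 CPM. All libraries labelled CD8KO lay above all those labelled WT. The ratio of summed counts, scaled by library size, was 273, with an exact Poisson interval (95%) of 93.4 to 1327 for counting error only. Cd8b1, its neighbour on chromosome 6, had 0 counts in all 7 libraries. Of the other T cell markers, Cd3d had 0 counts in all 7 libraries, Cd3e had 0, 9 and 0 counts in the libraries labelled CD8KO and none in those labelled WT, and Trac, the constant region of the T cell receptor alpha chain, had 1, 5 and 0 counts in the libraries labelled CD8KO against 0, 0, 1 and 0 in those labelled WT. Cd4, the coreceptor of helper T cells that some myeloid cells also carry, had 30, 78 and 0 counts in the libraries labelled CD8KO against 17, 41, 19 and 2 in those labelled WT. Libraries are named by their labels throughout, and every direction below holds for the labels as given.

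The adjusted p of Cd8a against WT was 0.465 in edgeR's quasi-likelihood test, so it did not pass the threshold of 0.05. Against the mean of the other 4 backgrounds Cd8a rose, with a log2 fold change of 6.76 ± 1.00 (SE) and an adjusted p of 0.00618 in the same test, the only gene to do so (0.00672% of those tested). The 13 libraries of those backgrounds held 45 Cd8a counts in all, with at most 2.94 CPM in any of them, and the ratio of summed counts was 94.8 (exact Poisson interval 70.5 to 130). The call did not hold in edgeR without CD8KO_9751 or without CD8KO_9753. It did not hold in DESeq2 either, and its adjusted p ran from 2.03e-19 to 0.937 over the alternatives. In this comparison 132 genes (0.887% of those tested) had an unadjusted p under 0.05 and were higher and 314 (2.11%) were lower.

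**Figure D1:**
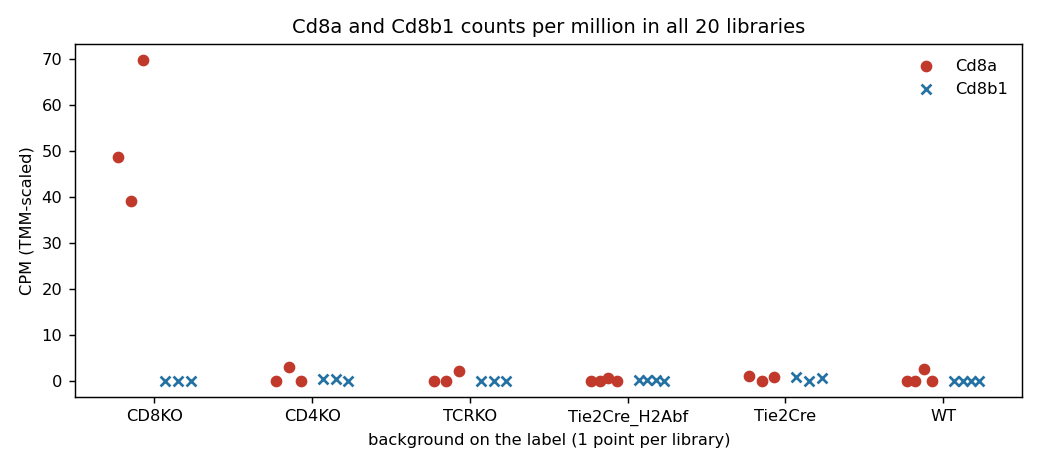
CPM of Cd8a (circles) and Cd8b1 (crosses) in each of the 20 libraries, by the background on the label. The 3 libraries labelled CD8KO sit at 39.0 to 69.8 CPM for Cd8a and at 0 for Cd8b1, and no other library exceeds 2.94 CPM for Cd8a.

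Cd8a lies at chr6:71373427-71379173 on the plus strand (GRCm38). Its 3 annotated transcripts are the protein-coding Cd8a-201 with 3128 bases and 5 exons, the protein-coding Cd8a-202 with 2975 bases and 4 exons, and Cd8a-203, with a retained intron, 1950 bases and 4 exons. The length that RSEM assigned to the gene, which depends on how it divides reads among the transcripts, was 2384, 2437 and 2423 bases in the 3 libraries labelled CD8KO. The deposited gene tables do not resolve exons, and the exons to which the Cd8a reads map were not analysed here.

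Genes near Cd8a were read next. Within 5 Mb of its start 371 genes were annotated and 52 had enough counts to be tested. Of these 23 were higher and 29 lower in the libraries labelled CD8KO than in those labelled WT, and 0 passed. Their median log2 fold change was -0.10, against -0.18 over all 14875 genes tested. Those with the smallest p at a mean of at least 1 CPM over the 7 libraries were Elmod3, Dnah6, Gm44321 and Gm43292. Elmod3 had 4.04, 5.72 and 2.90 CPM in libraries labelled CD8KO against 0.993, 0.212, 0 and 0.568 CPM in those labelled WT, and Dnah6, a dynein heavy chain gene, had 7.21, 6.19 and 4.06 CPM against 0.166, 0.212, 2.46 and 2.27 CPM. For both genes the groups did not overlap. Against the other 4 backgrounds their log2 differences were -0.12 ± 0.85 and 0.03 ± 0.69 (SE). Of the 52 genes tested, 2 were higher without overlap and 1 was lower, against 3.69% and 1.47% of all genes tested. At an unadjusted edgeR p under 0.05, 2 were higher and 3 lower, against 2.57% and 7.97% of all genes tested. Gm44321 had 3 counts in all in the libraries labelled CD8KO and 33 in those labelled WT, and Gm43292 had 13 counts against 32, with the highest value, 22.2 CPM, in WT_9771.

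Across all genes, 0 of 14875 passed the adjusted threshold in the comparison of libraries labelled CD8KO with those labelled WT (edgeR; 0% called in either direction). The smallest adjusted p was 0.465. Without adjustment 383 genes (2.57%) were higher and 1185 (7.97%) lower at a p under 0.05. DESeq2 called 82 genes, 18 higher and 64 lower. The count of low-p genes that were lower depended on single libraries: it was 433 (2.91%) without WT_9771, 388 (2.61%) without CD8KO_9752, 473 without CD8KO_9753, 646 without CD8KO_9751 and 204 (1.37%) without both WT_9771 and CD8KO_9752. The count of higher genes was 554 (3.72%) without WT_9771, 333 (2.24%) without CD8KO_9752, 647 without WT_9772 and 454 (3.05%) without both. Over all fits that leave out 1 of the 7 libraries, lower genes ran from 388 to 1371 and higher genes from 307 to 647. CPM values of the groups did not overlap for 549 genes that were higher (3.69%) and 218 that were lower (1.47%). The median log2 fold change of all genes was -0.18, moved to -0.37 with RLE size factors in place of TMM factors, and was 0 without WT_9771; list medians below are to be read against it.

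**Figure D2:**
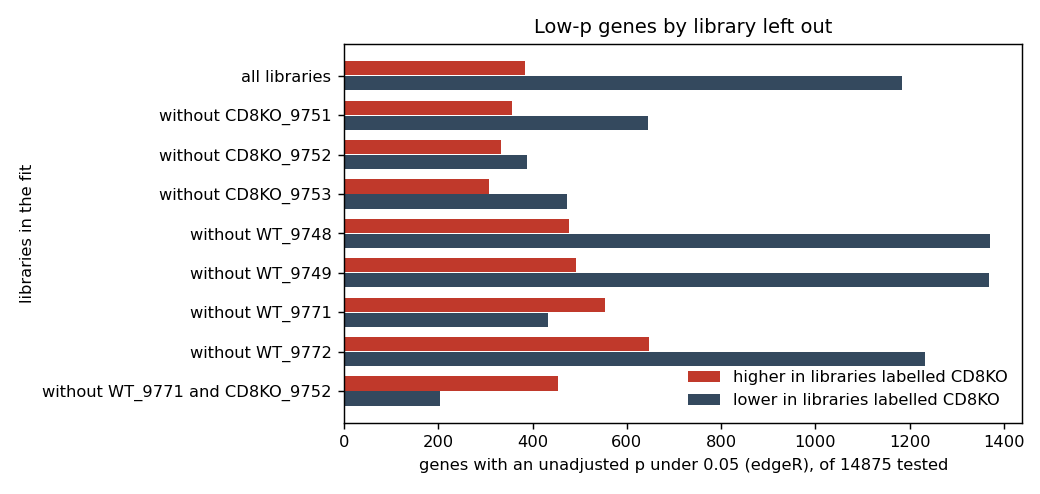
Number of genes with an unadjusted p under 0.05 in edgeR (horizontal axis, of 14875 tested) that were higher or lower in the libraries labelled CD8KO, for all libraries and after leaving out the library named. The lower genes number 1185 with all libraries, 433 without WT_9771 and 204 without WT_9771 and CD8KO_9752.

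Genes that interferon-gamma is known to induce were lower in the libraries labelled CD8KO, though none passed the threshold. Of 29 listed genes 28 were tested. Of these 24 were lower and 4 higher, against 56.1% and 43.4% over all genes tested. Of the 28 genes 8 had an unadjusted p under 0.05 and were lower, and 0 were higher at that level, against 7.97% and 2.57% of all genes tested. Without both WT_9771 and CD8KO_9752 the lower ones were 5, against 1.37% of all genes. The median log2 fold change of the list was -0.77. It was -0.80 without WT_9771, -0.60 without CD8KO_9752, -0.70 without both and -0.94 with RLE factors, and in the fit without both libraries all 28 were lower.

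The clearest values among them belonged to guanylate-binding proteins, large GTPases that act in defence inside the cell. Gbp10 (chr5:105215699-105239533) stood at 1.30, 2.65 and 0.348 CPM in libraries labelled CD8KO, against 18.5, 10.4, 32.8 and 10.4 CPM in those labelled WT. Gbp4 (chr5:105115767-105139586) stood at 54.5, 51.2 and 91.0 CPM, against 122, 179, 153 and 105 CPM. For both genes every library labelled CD8KO lay below every library labelled WT. Their log2 fold changes were -3.58 ± 1.14 and -1.09 ± 0.39 (SE), both with an adjusted p of 0.465. Gbp5 (chr3:142493978-142522344) stood at 24.5, 9.01 and 15.2 CPM in libraries labelled CD8KO, against 62.2, 67.1, 36.1 and 21.2 CPM in those labelled WT, where WT_9772 lay below CD8KO_9751. Gbp2 averaged 105 ± 26.6 CPM in libraries labelled CD8KO (SD, n = 3) and 203 ± 57.0 CPM in those labelled WT (SD, n = 4). DESeq2 called Gbp5, Gbp10 and Gbp4 lower, with adjusted p-values of 0.0351, 0.0381 and 0.0359. Over all alternatives their adjusted p-values ran up to 0.999. Gbp5 and Gbp2 lie on chr3 and Gbp4 and Gbp10 on chr5, and Gbp4 overlaps Gbp8 and Gbp9 on the same strand. RSEM divides reads that fit more than 1 related gene, so the level of any single member is uncertain. How far the named Gbp genes share reads was not tested. Gbp10 overlaps the protein-coding gene Gm43302 on the same strand. Gm43302 held 0, 0 and 123 counts in libraries labelled CD8KO, against 96, 4, 0 and 99 in those labelled WT. Its 123 counts were in CD8KO_9753, where Gbp10 was lowest (0.348 CPM). How far the separation of the groups in Gbp10 depends on this division of reads was not tested.

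Other members of the list did not overlap between the groups either. Irf1, the transcription factor that carries the interferon-gamma signal to its targets, stood at 5.05, 12.1 and 12.1 CPM in libraries labelled CD8KO, against 33.4, 22.3, 16.4 and 13.6 CPM in those labelled WT. Wars, the tryptophanyl-tRNA synthetase that interferon-gamma induces, stood at 88.7, 57.8 and 62.2 CPM against 206, 128, 107 and 107 CPM. Iigp1, an immunity-related GTPase, stood at 36.2, 35.9 and 47.2 CPM against 58.1, 70.3, 59.9 and 76.7 CPM. Their log2 fold changes were -1.14 ± 0.54, -0.98 ± 0.44 and -0.74 ± 0.39 (SE), with adjusted p-values of 0.470, 0.465 and 0.489. In all, 5 of the 28 genes lay lower in every library labelled CD8KO, against 1.47% of all genes, and 0 lay higher.

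The same genes were set against the other 4 backgrounds, a comparison that shares the libraries labelled CD8KO. There Gbp5 differed by -1.69 ± 0.44 on the log2 scale (adjusted p = 1.00 in edgeR and 0.00214 in DESeq2), Gbp10 by -1.92 ± 0.97 and Irf1 by -0.94, and the list's median was -0.51, against -0.04 over all genes. Gbp5 averaged 91.0 CPM in CD4KO, 19.95 CPM in TCRKO, 53.3 CPM in Tie2Cre and 77.1 CPM in Tie2Cre;H2Ab fl/fl libraries. The Gbp5 mean of 16.2 ± 7.80 CPM in libraries labelled CD8KO (SD, n = 3) was thus nearest to that of TCRKO. For Gbp2 the mean in libraries labelled CD8KO was instead nearest to that of Tie2Cre (139 CPM, against 52.6 CPM in TCRKO). The list of type I interferon response genes had a different median. Of its 28 tested genes 16 were higher and 12 lower in the libraries labelled CD8KO than in those labelled WT, with a median of 0.12 that became -0.04 with RLE factors.

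The promoters of 3 interferon-gamma genes are shown because most genes of the list were lower and because the letters bound by its factors are known: the gamma-activated site (TTCNNNGAA) and the interferon-stimulated response element of IRF factors (GAAA, any 2 bases, GAAA, which reads as TTTC, any 2 bases, TTTC on the other strand). Sequences are from RefSeq (GRCm38.p6), plus strand, from 250 bases before to 50 bases after the start of the gene in RefSeq, which for Gbp5 and Gbp2 is another base than the start of the gene in GENCODE, with matches on either strand in capitals. They lie at chr3:142496684-142496983 for Gbp5, chr3:142620413-142620712 for Gbp2 and chr11:53769764-53770063 for Irf1.
Gbp5: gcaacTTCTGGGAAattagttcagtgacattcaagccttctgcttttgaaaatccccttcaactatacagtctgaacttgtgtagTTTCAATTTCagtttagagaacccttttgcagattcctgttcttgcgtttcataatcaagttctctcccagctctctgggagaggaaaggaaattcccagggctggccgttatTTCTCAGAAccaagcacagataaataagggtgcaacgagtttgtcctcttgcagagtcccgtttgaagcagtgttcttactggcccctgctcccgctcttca
Gbp2: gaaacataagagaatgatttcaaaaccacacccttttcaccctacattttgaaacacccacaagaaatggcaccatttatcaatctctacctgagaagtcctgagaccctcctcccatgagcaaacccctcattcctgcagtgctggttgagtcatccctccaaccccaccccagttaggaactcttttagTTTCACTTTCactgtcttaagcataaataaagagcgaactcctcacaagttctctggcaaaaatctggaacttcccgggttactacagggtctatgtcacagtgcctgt
Irf1: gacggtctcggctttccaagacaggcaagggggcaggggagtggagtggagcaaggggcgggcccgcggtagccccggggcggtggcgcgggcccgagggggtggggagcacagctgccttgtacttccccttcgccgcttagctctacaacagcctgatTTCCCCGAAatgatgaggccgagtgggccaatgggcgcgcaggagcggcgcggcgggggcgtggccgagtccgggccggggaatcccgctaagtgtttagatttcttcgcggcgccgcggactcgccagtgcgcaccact
Gbp5 held 2 matches to the first motif, 245 and 52 bases before the RefSeq start, and 1 to the second, 165 bases before it. Gbp2 held 1 match to the second motif, 59 bases before the start, and Irf1 held 1 to the first, 90 bases before it. Of the 28 genes tested 16 had a promoter in the table, with 19 promoters in all; 9 of these held the first motif and 10 the second. Among 32851 mouse promoters of the same length 8.30% held the first and 3.44% the second. The list was made of known interferon-gamma targets, so these shares say nothing of the difference between the groups. An Irf1 promoter was shown only if it held a match. Of 7 promoters of the MHC class II list, 1 held the first motif and 0 the second. A match is a description of the letters and not a site.

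MHC class II genes were lower at the median as well. Of 10 listed genes 9 were tested, of which 8 were lower and 1 higher in the libraries labelled CD8KO. At an unadjusted edgeR p under 0.05, 4 were lower (7.97% of all genes tested were). Without both WT_9771 and CD8KO_9752 the genes lower at that level were 3, against 1.37% of all genes tested. The median log2 fold change was -1.16, and -1.18, -1.03 and -1.19 without WT_9771, without CD8KO_9752 and without both. Cd74, the invariant chain that guides class II molecules through the cell, stood at 240, 171 and 132 CPM in libraries labelled CD8KO, against 1511, 1223, 337 and 227 CPM in those labelled WT. WT_9748 and WT_9749 were far above the rest, while WT_9772 lay within the range of the libraries labelled CD8KO. The log2 fold change of Cd74 was -2.19 ± 0.55 (SE), with an adjusted p of 0.465 in edgeR and of 0.00097 in DESeq2, and between 0.00097 and 0.999 over all alternatives. H2-DMb1, a chain of the H2-M molecule that loads peptide on class II, stood at 7.5, 4.74 and 7.08 CPM in libraries labelled CD8KO, against 40.9, 27.4, 14.0 and 19.1 CPM in those labelled WT, with no overlap. H2-Aa, the I-A alpha chain, stood at 79.0, 48.1 and 40.2 CPM against 152, 183, 27.9 and 133 CPM, so that WT_9771 lay lowest of all. H2-Ob had 6 counts in the libraries labelled CD8KO and 32 in those labelled WT, and the 32 counts were all in WT_9771. Over the other 13 libraries Cd74 ran from 88.7 to 960 CPM, with a median of 333 CPM. H2-DMb1 ran from 0.873 to 38.1 CPM there (median 10.7 CPM) and H2-Aa from 14.3 to 175 CPM (median 86.8 CPM). The class II median against the other 4 backgrounds was -0.56, with 6 genes lower and 3 higher, against -0.04 over all genes.

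Class I genes and the peptide-loading machinery, which present to CD8 T cells, had a smaller median difference. Of 22 genes tested 17 were lower and 5 higher in the libraries labelled CD8KO, with a median of -0.33 (-0.55 without WT_9771). H2-Q4 averaged 174 ± 93.9 CPM in libraries labelled CD8KO (SD, n = 3) and 368 ± 208 CPM in those labelled WT (SD, n = 4). H2-D1 averaged 597 ± 280 and 1057 ± 763 CPM, H2-K1 678 ± 113 and 1042 ± 608 CPM, and Calr, a chaperone of class I molecules, 64.8 ± 12.4 and 103 ± 53.1 CPM. In each of these 4 genes the groups overlapped. H2-Q, H2-D and H2-K genes are close in sequence, so reads may be divided among them.

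**Figure D3:**
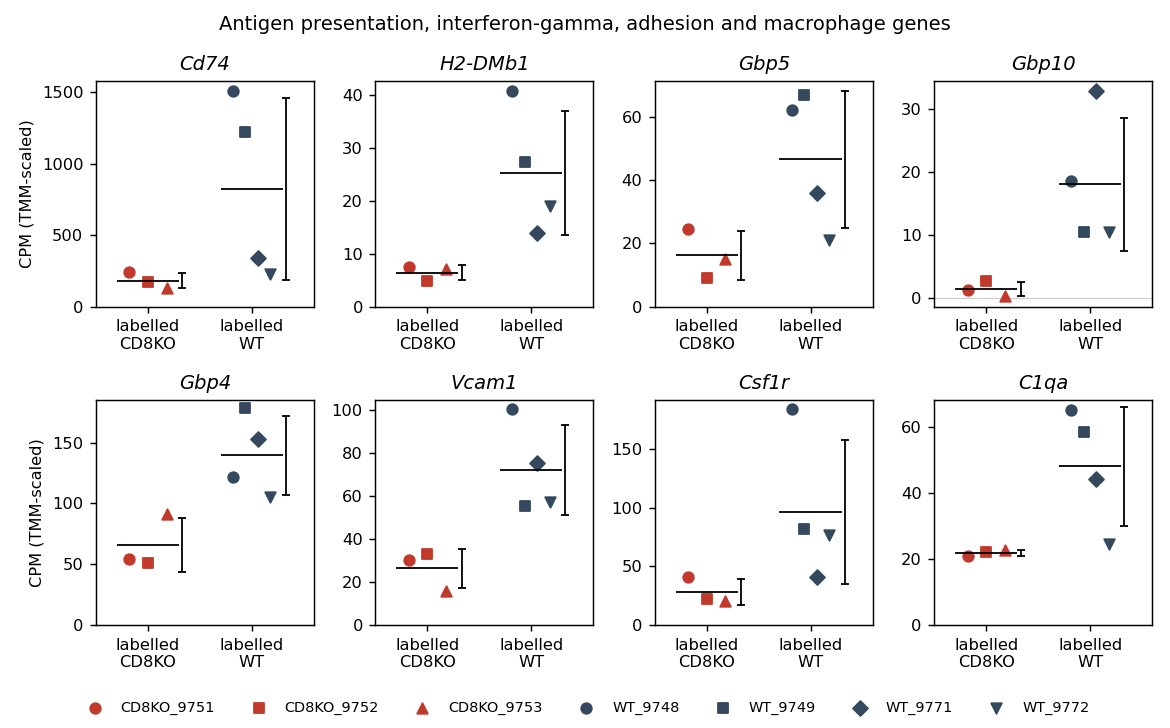
CPM in each library labelled CD8KO (left, red) and WT (right, blue) for 8 genes of antigen presentation, interferon-gamma response, adhesion and macrophages. Horizontal lines are means and bars beside them are SD (n = 3 and n = 4). Gbp10, Gbp4, H2-DMb1, Vcam1 and C1qa do not overlap between the groups, whereas Cd74, Gbp5 and Csf1r do.

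Macrophage genes were also lower at the median, and class II and interferon-gamma genes are expressed by macrophages too. Of 20 genes tested 19 were lower and 1 higher in the libraries labelled CD8KO, with a median of -0.44 (-0.60 without WT_9771, -0.80 without CD8KO_9752, -0.85 without both). At an unadjusted p under 0.05, 2 of the 20 were lower, a share near the 7.97% of all genes tested. Csf1r, the receptor of the macrophage growth factor CSF1, stood at 41.1, 22.5 and 20.5 CPM in libraries labelled CD8KO, against 184, 82.2, 41.0 and 76.7 CPM in those labelled WT. Only WT_9771, at 41.0 CPM, reached into the range of the libraries labelled CD8KO. C1qa, a chain of complement C1q, stood at 20.8, 22.2 and 22.6 CPM against 65.1, 58.4, 44.3 and 24.4 CPM. C1qc stood at 17.4, 22.5 and 15.4 CPM against 57.9, 90.7, 12.3 and 40.7 CPM. The groups did not overlap for C1qa and did for C1qc. They also overlapped for the markers C1qb, Cd68 and Adgre1. Over the other 13 libraries C1qa ran from 5.49 to 78.4 CPM (median 27.2 CPM) and Csf1r from 4.20 to 166 CPM (median 28.3 CPM). The macrophage median against the other 4 backgrounds was -0.33, with 14 genes lower and 6 higher, against -0.04 over all genes. All 8 dendritic cell genes tested (of 11 listed) were lower, with a median of -0.92, which ran from -2.07 (without CD8KO_9752) to -0.46 (without WT_9749) when single libraries were left out. The part of macrophage RNA in the class II and interferon-gamma differences was not tested.

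Of 16 adhesion genes tested, 12 were higher and 3 lower, with a median of 0.14 (0.02 without WT_9771 and -0.13 without both libraries, where 6 were higher and 9 lower). One of the lower ones was Vcam1, the receptor for leukocytes that carry the integrin VLA-4 (chr3:116109949-116129688). It stood at 30.1, 33.1 and 15.8 CPM in libraries labelled CD8KO, against 101, 55.6, 75.5 and 57.2 CPM in those labelled WT, without overlap. Its log2 fold change was -1.45 ± 0.53 (SE; adjusted p = 0.465), -1.61 without WT_9771 and CD8KO_9752, and -0.71 ± 0.45 against the other 4 backgrounds. Cx3cl1, a chemokine anchored to the endothelial membrane, stood at 13.6, 18.3 and 24.4 CPM against 31.3, 43.8, 84.5 and 23.1 CPM. The list of TNF and NF-kappaB response genes had 12 of 19 genes lower and a median of -0.08, which was -0.33 without WT_9771 and turned to 0.24 without WT_9749.

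Genes of endothelial identity were higher at the median. Of 24 genes tested 23 were higher and 1 lower, with a median of 0.41. The median was 0.22 without WT_9771, 0.49 without CD8KO_9752 and 0.28 with RLE factors. Without WT_9771 only 16 of the 24 genes were higher and 8 were lower. With RLE factors 19 were higher and 5 lower. Plvap, which forms the diaphragms of fenestrated and leaky capillaries, stood at 1033, 653 and 774 CPM in libraries labelled CD8KO, against 197, 126, 124 and 655 CPM in those labelled WT. WT_9772 lay with the libraries labelled CD8KO and the other libraries labelled WT lay far below. Plvap's log2 fold change was 1.57 ± 0.52 (SE; adjusted p = 0.465), and 0.19 ± 0.43 against the other 4 backgrounds. Eng, a coreceptor for TGF-beta and BMP ligands, averaged 1095 ± 106 CPM in libraries labelled CD8KO (SD, n = 3) and 698 ± 282 CPM in those labelled WT (SD, n = 4). Cldn5, a tight junction protein, averaged 85.2 ± 38.5 and 46.7 ± 14.9 CPM, and Erg, a transcription factor of endothelium, 157 ± 49.2 and 88.3 ± 49.1 CPM. Groups overlapped for each of these 3 genes. Junction genes (15 of 18 higher, median 0.21), capillary genes (10 of 14, 0.40), arterial genes (10 of 15, 0.27) and venous genes (7 of 11, 0.08) had medians between those of all genes and of the identity list. With RLE factors the medians of junction, capillary, arterial and venous genes became 0.05, 0.26, 0.01 and -0.13, and that of venous genes was -0.07 without both WT_9771 and CD8KO_9752. With single libraries left out, the junction median ran from 0.13 (without WT_9771) to 0.41 (without CD8KO_9752), the capillary median from 0.11 (without CD8KO_9753) to 0.67 (without CD8KO_9752), the arterial median from -0.04 (without CD8KO_9751) to 0.52 (without WT_9748) and the venous median from 0.03 (without WT_9771) to 0.45 (without WT_9772).

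Tip cell genes, which mark the leading cells of vascular sprouts, had 13 of 20 members higher and a median of 0.27, which was 0.15 without WT_9771 and 0.14 with RLE factors. Apln, the ligand of the apelin receptor, stood at 306, 277 and 472 CPM in libraries labelled CD8KO, against 68.5, 73.5, 66.5 and 288 CPM in those labelled WT, and again WT_9772 lay with the libraries labelled CD8KO. Its log2 fold change was 1.5 ± 0.46 (SE; adjusted p = 0.465), and 0.15 ± 0.38 against the other 4 backgrounds. Trp53i11 averaged 572 ± 98.6 CPM in libraries labelled CD8KO (SD, n = 3) and 349 ± 119 CPM in those labelled WT (SD, n = 4), and Rgcc 23.4 ± 6.98 and 13.0 ± 4.05 CPM, both without overlap. Plaur, the urokinase receptor, averaged 44.1 ± 17.2 and 64.2 ± 32.7 CPM.

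In the TGF-beta and BMP pathway 16 of 25 genes were higher, with a median of 0.24. It was 0.10 without WT_9771, where 13 were higher and 12 lower, 0.54 without WT_9749 and 0.08 with RLE factors. Among the ligands, Bmp4 stood at 10.5, 12.9 and 4.53 CPM in libraries labelled CD8KO, against 0, 3.61, 0.821 and 2.27 CPM in those labelled WT. Among the receptors, Bmpr1a had 0 counts in the libraries labelled CD8KO and 38 in those labelled WT, all in WT_9749 and WT_9772. The signal transducer Smad1 stood at 77.8, 65.1 and 110 CPM against 35.9, 31.6, 33.6 and 63.2 CPM. The target gene Id1 stood at 16.4, 20.8 and 17.2 CPM against 12.6, 9.77, 1.64 and 6.81 CPM. The groups did not overlap for Bmp4, Smad1 or Id1, and none of these 4 genes passed the threshold, with log2 fold changes of 2.42 ± 1.13, 1.03 ± 0.43 and 1.19 ± 0.54 (SE) for the 3 that were higher.

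The fibroblast list, of matrix genes in the main, was at low levels. Of its 18 genes 15 were tested, and 11 of these were higher and 4 lower, with a median of 1.07. The median was 2.78 without WT_9771, 0.57 without WT_9749, 0.48 with RLE factors and 0.25 in DESeq2. Mmp2, a gelatinase, stood at 18, 19 and 23.6 CPM in libraries labelled CD8KO, against 5.63, 0.425, 0 and 2.65 CPM in those labelled WT, with a log2 fold change of 3.07 ± 0.88 (SE; adjusted p = 0.465). Against the other 4 backgrounds it differed by 1.05 ± 0.65. Col6a2, a chain of collagen VI, had 129 counts in the libraries labelled CD8KO and 2 in those labelled WT, a ratio of 28.5 (exact Poisson interval 7.74 to 238). The defining fibroblast markers were near the floor: Col1a1, Col1a2, Col3a1, Dcn and Pdgfra summed to 1.30 to 5.34 CPM in libraries labelled CD8KO and to 0 to 29.5 CPM in those labelled WT, where 29.5 CPM was the value of WT_9771.

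Ribosomal protein genes were higher in 29 of 30 cases, 9 of them at an unadjusted p under 0.05 (2.57% of all genes tested were), with a median of 0.85 (0.68 without WT_9771, 0.73 without CD8KO_9752, 0.54 without both). Rplp0, of the ribosomal stalk, stood at 195, 445 and 220 CPM in libraries labelled CD8KO, against 94.0, 152, 126 and 190 CPM in those labelled WT. Rpl8 stood at 153, 235 and 219 CPM against 59.6, 67.1, 39.4 and 212 CPM. CD8KO_9752, the library with the most protein-coding counts, was highest in both genes. Without it and WT_9771, 1 of the 30 genes was higher at an unadjusted edgeR p under 0.05, a share near the 3.05% of all genes tested. Nuclear genes of oxidative phosphorylation were higher in 22 of 26 cases, with a median of 0.62 that became 0.30 without WT_9771, 0.35 without CD8KO_9752 and 0.10 without both. Ribosomal protein genes share reads with many processed pseudogenes. Their median against the other 4 backgrounds was 0.21, with 28 genes higher and 2 lower. Over the other 13 libraries Rplp0 ran from 126 to 343 CPM (median 204 CPM) and Rpl8 from 113 to 285 CPM (median 155 CPM).

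Immediate early genes, which respond within minutes to stimuli and to tissue dissociation, were higher in 15 of 19 cases, with a median of 0.37 (0.21 without WT_9771, 0.22 with RLE factors, 0.31 without both libraries). Dusp1, a phosphatase of MAP kinases, stood at 1048, 783 and 824 CPM in libraries labelled CD8KO, against 330, 271, 254 and 899 CPM in those labelled WT. Klf2, a transcription factor induced by blood flow, stood at 3.17, 18.8 and 9.75 CPM against 0.993, 3.40, 2.46 and 3.98 CPM. Egr1 averaged 160 ± 59.6 CPM in libraries labelled CD8KO (SD, n = 3) and 91.4 ± 52.2 CPM in those labelled WT (SD, n = 4). Over the other 13 libraries Dusp1 ran from 438 to 1341 CPM, with a median of 783 CPM. Klf2 ran from 1.89 to 17.9 CPM there (median 5.94 CPM) and Egr1 from 55.9 to 248 CPM (median 120 CPM). The immediate early median against the other 4 backgrounds was 0.19. Cell cycle genes (15 of 27 higher, median 0.09), genes of hypoxia and glycolysis (13 of 23, 0.08), heat shock genes (7 of 13, 0.04) and the unfolded protein response (10 of 17, 0.09) had medians near 0, with single libraries left out ranging from -0.07 to 0.25, -0.08 to 0.26, -0.07 to 0.27 and -0.19 to 0.35 in the same order. The cell cycle median was -0.12 with RLE factors and 0.94 in limma-voom, where 19 of 27 genes were higher. Without both libraries the medians of hypoxia, heat shock and unfolded protein response genes were -0.27, -0.05 and -0.22.

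**Figure D4:**
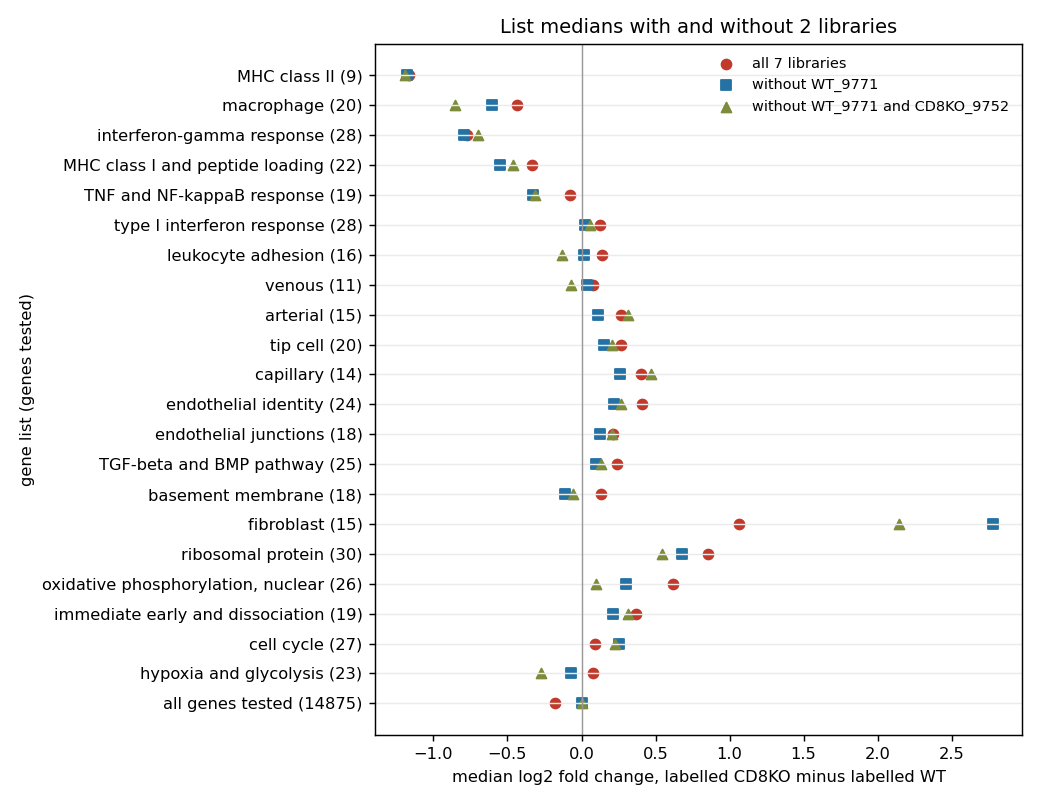
Median log2 fold change (labelled CD8KO minus labelled WT, horizontal axis) of 21 gene lists and of all genes tested, with the number of genes tested in parentheses. Circles use all 7 libraries, squares leave out WT_9771 and triangles leave out WT_9771 and CD8KO_9752. MHC class II lies at -1.16 to -1.19 and interferon-gamma response at -0.70 to -0.80 in the 3 fits, whereas the fibroblast list moves between 1.07 and 2.78.

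The genes with the smallest p, taken at a mean of at least 10 CPM over the 7 libraries, were led by Trp53inp2, whose product promotes autophagy (chr2:155381059-155389850). It stood at 23.2, 22.2 and 26.5 CPM in libraries labelled CD8KO, against 2.65, 6.58, 0 and 2.27 CPM in those labelled WT. Its log2 fold change was 2.94 ± 0.58 (SE), with an adjusted p of 0.465 in edgeR and 1.53e-08 in DESeq2, and of up to 0.999 over the alternatives. In the other 13 libraries Trp53inp2 ran from 14.7 to 33.6 CPM, so that the 4 libraries labelled WT lay below all 16 others. Against the other 4 backgrounds the difference was 0.04 ± 0.46.

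Tlnrd1, a gene with a talin rod domain (chr7:83879873-83884305), stood at 22.2, 46.4 and 17.6 CPM in libraries labelled CD8KO, against 6.29, 2.55, 0.821 and 2.08 CPM in those labelled WT. Cpne2, a calcium-dependent membrane-binding protein of the copine family (chr8:94532990-94570531), stood at 25.1, 19.9 and 46.3 CPM against 4.30, 2.76, 4.10 and 0.946 CPM. Rere, a transcriptional corepressor, stood at 29.4, 26.9 and 38.5 CPM against 8.61, 8.50, 7.39 and 11.4 CPM. None of these overlapped between the groups. Their log2 fold changes were 3.19 ± 0.68, 3.36 ± 0.77 and 1.81 ± 0.47 (SE), and DESeq2 called all 3, with adjusted p-values of 0.000949, 0.00811 and 0.00811, while edgeR's were 0.465. Against the other 4 backgrounds the same genes differed by 0.94 ± 0.50, 1.37 ± 0.54 and 0.40 ± 0.38.

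The other higher genes by this rule were Rras, a small GTPase related to Ras (43.7 ± 12.0 CPM in libraries labelled CD8KO and 13.1 ± 6.66 CPM in those labelled WT; SD, n = 3 and 4), Dpp8, a dipeptidyl peptidase (18.3 ± 6.69 and 3.98 ± 2.22 CPM), Igfbp7, an extracellular binding protein made by tumour vessels (200.4 ± 110 and 76.9 ± 27.1 CPM), Cdc42ep1, an effector of the GTPase CDC42 (33.7 ± 3.83 and 6.68 ± 5.85 CPM), and the pseudogene Tpt1-ps3 (41.3 ± 31.7 and 8.71 ± 8.77 CPM). The groups did not overlap for the first 4. Igfbp7 rested in part on CD8KO_9752, with 326 CPM there against 123 and 152 CPM in the other libraries labelled CD8KO, and its log2 fold change of 1.38 ± 0.38 became 0.67 without that library and WT_9771. Tpt1-ps3 is near-identical to Tpt1, so its reads are uncertain. Over the other 13 libraries Rras ran from 20.8 to 53.2 CPM (median 39.6 CPM) and Dpp8 from 9.72 to 38.2 CPM (median 13.9 CPM). Igfbp7 ran from 76.4 to 181 CPM there (median 104 CPM) and Cdc42ep1 from 8.08 to 35.0 CPM (median 22.8 CPM). Tpt1-ps3 ran from 12.6 to 23.5 CPM (median 17.2 CPM). Genes were also sought that kept an unadjusted edgeR p under 0.05 with all libraries, without WT_9771, without CD8KO_9752 and without both. These 4 fits share libraries, so they are not independent of each other. Over all 14875 genes tested, 3.69% were higher without overlap. Of these, 34 with a mean of at least 10 CPM had such a p in all 4 fits. Besides those named they included Acot7, an acyl-CoA thioesterase, with 36.2, 36.6 and 36.8 CPM in libraries labelled CD8KO against 12.4, 9.56, 19.7 and 8.14 CPM in those labelled WT, Vac14, a scaffold of phosphoinositide synthesis (29.7 ± 4.43 and 9.31 ± 3.06 CPM), and Nr1d1, a repressor in the circadian clock (43.2 ± 19.1 and 15.9 ± 5.78 CPM), which overlaps Thra on the other strand.

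**Figure D5:**
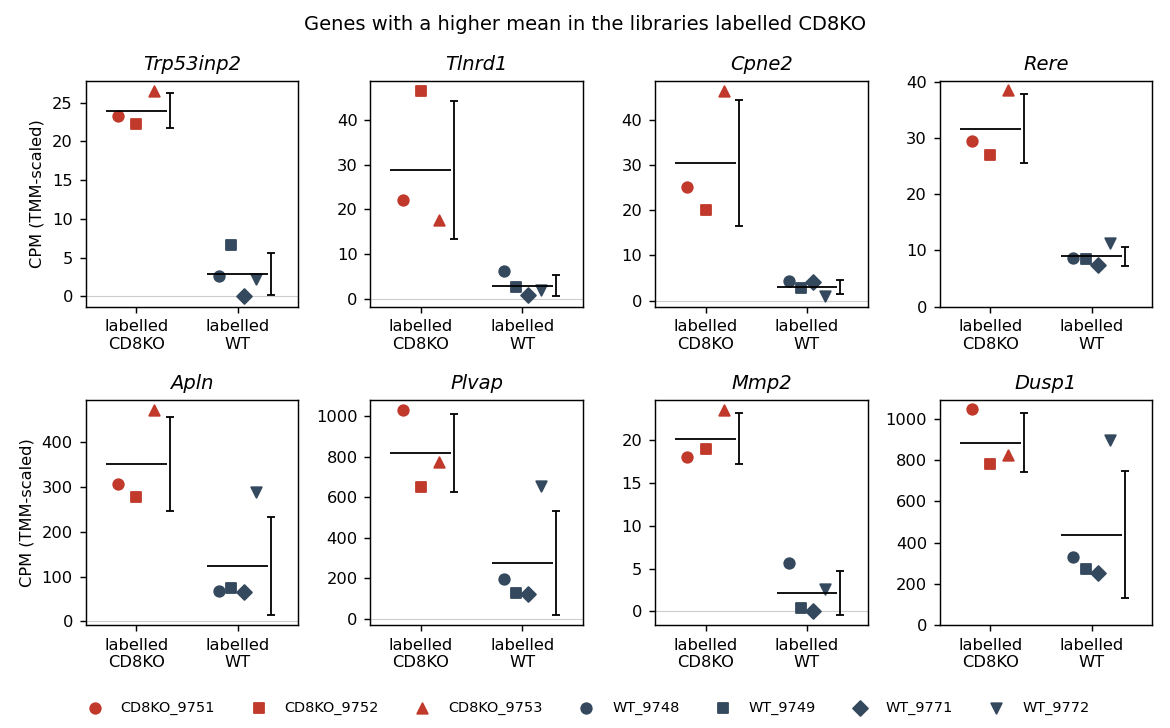
CPM in each library labelled CD8KO (left, red) and WT (right, blue) for 8 genes with a higher mean in the libraries labelled CD8KO. Horizontal lines are means and bars beside them are SD (n = 3 and n = 4). Trp53inp2, Tlnrd1, Cpne2, Rere and Mmp2 separate the groups, while WT_9772 lies within the range of the libraries labelled CD8KO for Apln, Plvap and Dusp1.

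Of the 10 lower genes with the smallest p, several were highest in WT_9771. Pclo, a scaffold protein of synapses, had 0 counts in the libraries labelled CD8KO and 113 in those labelled WT, with 84.5 CPM in WT_9771 and 1.89 CPM in WT_9772. Ralgps2 stood at most at 0.384 CPM in libraries labelled CD8KO, against 61.5 CPM in WT_9771, 11.2 CPM in WT_9772 and at most 0.166 CPM in the other libraries labelled WT, and its log2 fold change of -6.35 ± 2.01 (SE) became -4.16 ± 1.88 without WT_9771. Sfi1, a centrosomal gene that overlaps Drg1, stood at 1.15, 7.04 and 2.44 CPM in libraries labelled CD8KO, against 10.3, 10.8, 111 and 15.3 CPM in those labelled WT. Vezt, a protein of adherens junctions, stood at 9.80, 5.34 and 9.52 CPM against 22.3, 20.4, 66.5 and 22.7 CPM. In Sfi1 and Vezt the groups did not overlap, yet the highest value was that of WT_9771 and the log2 fold changes of -3.30 ± 1.00 and -1.99 ± 0.61 became -1.74 and -1.41 without it.

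Over all 14875 genes tested, 1.47% were lower without overlap. Of these, 10 with a mean of at least 10 CPM had an unadjusted p under 0.05 in the same 4 fits. Gbp10 and Vcam1 have been described. Clstn1, a calsyntenin of the membrane, stood at 15.4, 7.56 and 10.9 CPM in libraries labelled CD8KO, against 67.9, 20.8, 32 and 29.5 CPM in those labelled WT. Manba, a lysosomal mannosidase, stood at 2.16, 4.82 and 3.25 CPM against 8.94, 20.4, 8.21 and 31.4 CPM. Tbxas1, the thromboxane synthase of platelets and macrophages, stood at 1.44, 3.12 and 2.44 CPM against 27.0, 21, 32.8 and 8.71 CPM, and it overlaps Hipk2 on the other strand. Ptk2b, a tyrosine kinase related to focal adhesion kinase, averaged 9.17 ± 4.65 CPM in libraries labelled CD8KO (SD, n = 3) and 32.4 ± 15.5 CPM in those labelled WT (SD, n = 4), and Map3k14, the kinase NIK of the noncanonical NF-kappaB pathway, 4.34 ± 0.886 and 18.3 ± 10.2 CPM. They also included Mcph1, which overlaps Angpt2 on the other strand, and C130089K02Rik, which overlaps Maml3 on the same strand. Tbxas1 is also expressed by macrophages. As given above, the macrophage list was lower at the median, while the sums of its 6 markers overlapped between the groups. The part of macrophages in the values of Tbxas1 was not tested.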

How the data were processed

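CD31-positive tumour cells were sorted, and MATQ amplification was followed by Nextera XT library preparation, per the labels' protocols; strand is not kept, so reads of genes that overlap on opposite strands are mixed. Processing used bcl2fastq 2.17, STAR, RSEM 1.2.28, DESeq2 and the build GRCm38, according to the submitters' processing notes. The authors deposited for each library an expected count (RSEM's estimated count, not normalized, per the file headers), a TPM value (only looked at) and a length per gene. The deposited expected counts, of which 4.45% were not whole, were rounded. GENCODE M21 named 46488 of 46983 gene IDs; the other 495 kept their ID.

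The test was edgeR 4.0.16 (R 4.3.3): quasi-likelihood with robust estimation, TMM factors, filterByExpr by group (14875 genes kept), a 6-group model of all 20 libraries, and Benjamini-Hochberg adjustment at 0.05. The common biological coefficient of variation was 0.995. CPM use effective library sizes, and SEs come from the F statistic. Ratios of summed counts carry exact Poisson intervals (95%).

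The libraries compared and the 42 gene lists were chosen with earlier results of these data known, so lists are described by counts and medians and not tested. Named genes were, per direction, up to 10 with the smallest p at a mean of at least 10 CPM over the 7 libraries, up to 10 that kept an unadjusted p under 0.05 in 4 fits without overlap of the groups, and up to 4 per list with a mean of at least 1 CPM, of which the text gives a part (some are not reported here); further members of the interferon-gamma and macrophage lists without overlap were chosen after their values were seen.

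Simulated data were drawn from 1 common mean per gene, with 100 genes changed at each fold, all with a mean of at least 10 CPM. On them the comparison with WT recovered 28% at 4-fold and 92% at 16-fold, with 1 false call. Changes in genes below that level, and a library set apart as WT_9771 was, were not simulated. The comparison with the other 4 backgrounds recovered 55% and 98%, but 46 of its 199 calls were false. Of these 36 were in genes with a background at 0 counts and the rest in other genes. Cd8a had counts in all 4 backgrounds, but in 1 of them only the 3 counts of Tie2Cre_H2Abf_9583. The simulation therefore cannot decide whether the call of Cd8a is a false one. With these backgrounds as 1 group, an alternative chosen after seeing the data, 18 of 167 calls were false. Replicates differed by chi-square values of 53.9 to 524 per degree of freedom, far more than sampling noise, so none was counted as a duplicate. Alternatives were DESeq2 1.42.0, limma 3.58.1 (voom with sample weights), RLE factors, other filters, other sample sets, a covariate and leaving out libraries.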

Additional observations from a re-analysis of the deposited data

Results flagged for a closer look

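In groups of 4 samples, 15 of 77 values examined had 1 library labelled WT whose gap to its nearest neighbour, divided by the range, exceeded Dixon's 95% critical value. Chance gives about 1 in 20 for independent values with a normal spread. The genes were mostly chosen by their p in these same libraries, so the count cannot be set against that rate. The groups of 3 were not examined. WT_9771 accounted for 10 of the 15 flagged values. Satellite-like genes took 47.1% of its counts, against 0.0190% to 0.983% in the other libraries labelled WT. It was highest for Cd8a (2.46 CPM, from 3 counts), H2-Ob (26.3 CPM), Alcam (23.8 CPM), Pclo (84.5 CPM), Sfi1 (111 CPM), Vezt (66.5 CPM) and Gm43292 (22.2 CPM), and lowest for Cd34 (123 CPM, against 284 to 317 CPM in the others) and Pecam1 (435 CPM, against 1078 to 1207 CPM).

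WT_9772 was highest for Plvap (655 CPM, against 124 to 197 CPM in the other libraries labelled WT), Apln (288 CPM, against 66.5 to 73.5 CPM), Dusp1 (899 CPM, against 254 to 330 CPM), Rpl8 (212 CPM, against 39.4 to 67.1 CPM) and Smad1 (63.2 CPM, against 31.6 to 35.9 CPM). For the first 4 of these genes it lay within the range of the libraries labelled CD8KO.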

How the results depend on the processing

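No paired analysis was possible because each library number is used once, so no number is shared between the groups. Among 73 genes examined against WT, 3 changed the sign of their difference in at least 1 of 18 alternatives; the difference of Pclo was 0 with only WT_9748 and WT_9749 as WT. H2-Ob turned to 2.77 without WT_9771, 2.84 without WT_9771 and Tie2Cre_9501, and 2.81 with only WT_9748 and WT_9749 as WT; Ralgps2 turned to 1.01 in that last setting; and Pecam1 turned to -0.041 without WT_9771 and -0.016 without WT_9771 and Tie2Cre_9501. When single libraries were left out, H2-Ob ran from -8.11 to 2.77 and Pecam1 from -0.041 to 0.36. Against the other 4 backgrounds, Trp53inp2 turned to -0.039 with RLE factors and with DESeq2 and to -0.033 without CD8KO_9753, Apln to -0.12 without CD8KO_9753 and -0.17 with the other backgrounds as 1 group, and Plvap to -0.013 without CD8KO_9751 (highest values with single libraries left out: 0.14, 0.34 and 0.36); the cause was not tested. The number of genes called against WT, 0 in edgeR, was 82 in DESeq2, 12 without a filter on low counts, 3 (Cd74, Tpt1-ps3 and Tpt1) with only WT_9748 and WT_9749 as WT and 1 (Cd8a) in limma-voom, and 0 to 1 when single libraries were left out (Tpt1, named after its values were seen, without WT_9772). The lists held 719 genes, not all of them tested. Of these 6 were called in DESeq2, against 82 of all 14875 genes tested, and 2 without a filter, against 12 of 33340. In limma-voom 1 was called, against 1 of 14875, and 1 with only WT_9748 and WT_9749 as WT, against 3 of 14875. Against the other 4 backgrounds the number, 1 in edgeR, was 20 in DESeq2, 4 in limma-voom (Cd8a, Peg10, C230062I16Rik and Cbx2, the last 3 named after their values were seen) and 0 to 1 when single libraries were left out. With only the groups compared in the model, 9977 genes were tested against WT and 0 were called, with 142 higher and 217 lower at an unadjusted p under 0.05. RLE factors gave 297 higher and 1464 lower, and limma-voom 575 higher and 385 lower. WT_9771, with 203555 counts in other protein-coding genes, limits every value of genes below its floor of 2.46 CPM.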
